A study of Mus musculus with 8 samples.

Results

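The 3p arms of the predicted mirtrons miR-6896 to miR-7094 were followed in small RNA libraries of mouse 3T3 cells. The members are all mature miRNA names of this number range that end in -3p in the table of perfectly matching reads. The rule uses the name alone and no measured value, but it was set with earlier results of these data known. There are 201 such names, at 203 genomic loci, among 1966 mature names at 2108 loci in the table. The 3T3 cells, an immortalised mouse fibroblast line labelled NIH3T3, were transiently transfected with 1 of 4 plasmids and cultured for 48 h before total RNA was isolated. CAG-EGFP-MosIR and CAG-EGFP-Lin28IR express long Mos or Lin28 hairpins together with an EGFP reporter from the CAG promoter, an RNA polymerase II promoter. U6-MosIR and U6-Lin28aIR express Mos or Lin28a hairpins from the U6 promoter, which is read by RNA polymerase III. The 2 kinds of plasmid thus differ in promoter, reporter, hairpin length and hairpin ends at once, as the dsRNA of the CAG-EGFP plasmids is longer. The Lin28 hairpin of the CAG-EGFP plasmid also holds a Lin28b segment, so that Lin28 stands for 2 unlike hairpins in the comparisons below. No untransfected cells are among the libraries used here. The 8 libraries, 2 for each plasmid, came from wells that were transfected separately.

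A mirtron is a short intron that folds into a miRNA-like hairpin. Splicing and lariat debranching take the place of the Drosha cut that makes other miRNA precursors, and Dicer then cuts the hairpin. In a mirtron both hairpin ends are splice sites, so that the 5p arm begins at the 5′ splice site and the 3p arm ends at the 3′ splice site, whereas tailed mirtrons keep extra intron sequence on a single side. The 3p arm therefore carries the pyrimidine-rich tract and the terminal AG of an intron.

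The sequences below are the mature 3p arms of the 10 members with the highest counts, and of miR-7091-3p, which gained reads when mismatches were allowed. They show the intron end that the members share. They come from RefSeq (GRCm38.p6), are written 5′ to 3′, and have the seed (bases 2 to 8), which pairs with target mRNAs, in capitals.
miR-6944-3p: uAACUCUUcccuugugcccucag
miR-6967-3p: uCAUCUUUaucucuccccag
miR-6911-3p: uCAAUCACacucuguccacag
miR-7070-3p: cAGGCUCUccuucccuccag
miR-6989-3p: uGUCCACUgucucuggucccag
miR-7075-3p: cAACCAUGucuucuuucccag
miR-7079-3p: uGACUUCUguucucuuuccag
miR-7093-3p: uUUCCAUCugucauccugcag
miR-6904-3p: uCUGAUCUcuuaccccag
miR-7068-3p: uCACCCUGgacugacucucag
miR-7091-3p: aGUGGCUUcugucgucucuag
All 11 end in AG. RefSeq gave a mature sequence for 177 of the 201 names. Among these 177 the length ranged from 18 to 25 nt with a median of 22 nt, and 138 (78.0%) ended in AG. Among 530 other mature 3p sequences 10.9% ended in AG. The median pyrimidine content was 72.2% in the members, 54.5% in the other 3p sequences and 31.8% in 178 5p arms of the same hairpins. At a cut of 1 count the ending did not separate members with reads from members without. AG ended 76.3% of the 97 matched members with at least 1 count and 80.0% of the 80 matched members at 0. All 22 matched members with at least 10 counts ended in a pyrimidine followed by AG. Of all 177, which include these 22, 76.8% did so. These comparisons of sequence are descriptions and were not tested.

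The members had few seeds in common. The 177 sequences held 169 distinct seeds, no member shared its whole sequence with another miRNA, and 15 members fell into 7 shared seeds. The largest group, miR-7018-3p, miR-7023-3p and miR-7068-3p with the seed CACCCUG, had 29 counts together, 26 of them on miR-7068-3p. Of the 177 members, 15 shared a seed with a miRNA outside the set, such as miR-7070-3p with miR-344g-3p. In the GRCm38 genome 173 of the 177 sequences had a single perfect copy and 4 had 2 copies, among them miR-6967-3p.

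In the gene models the label held for the 3′ end of the hairpin and less often for the 5′ end. As mirtrons are defined by intron ends, this describes the labelled set and is no separate evidence for the label. In GENCODE M21 (GRCm38, the mm10 build of the files), 189 of the 203 member loci (93.1%) ended within 2 nt of the 3′ end of an annotated intron on the same strand, 157 of them at the very last base. Of 676 other 3p loci 5.62% did so. Only 13 members also had the 5p arm within 2 nt of the intron's 5′ end, as a mirtron without a tail would. Where annotated introns were equally near at the 3′ end, the one starting nearest to the 5p arm was taken, which favours short introns. The introns that ended at a member ranged from 72 to 36269 nt with a median of 479 nt, and 66 of the 189 were shorter than 200 nt. The name "predicted mirtron" thus stands here for 3p arms at intron ends, most of them in introns longer than the hairpin.

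**Figure D1:**
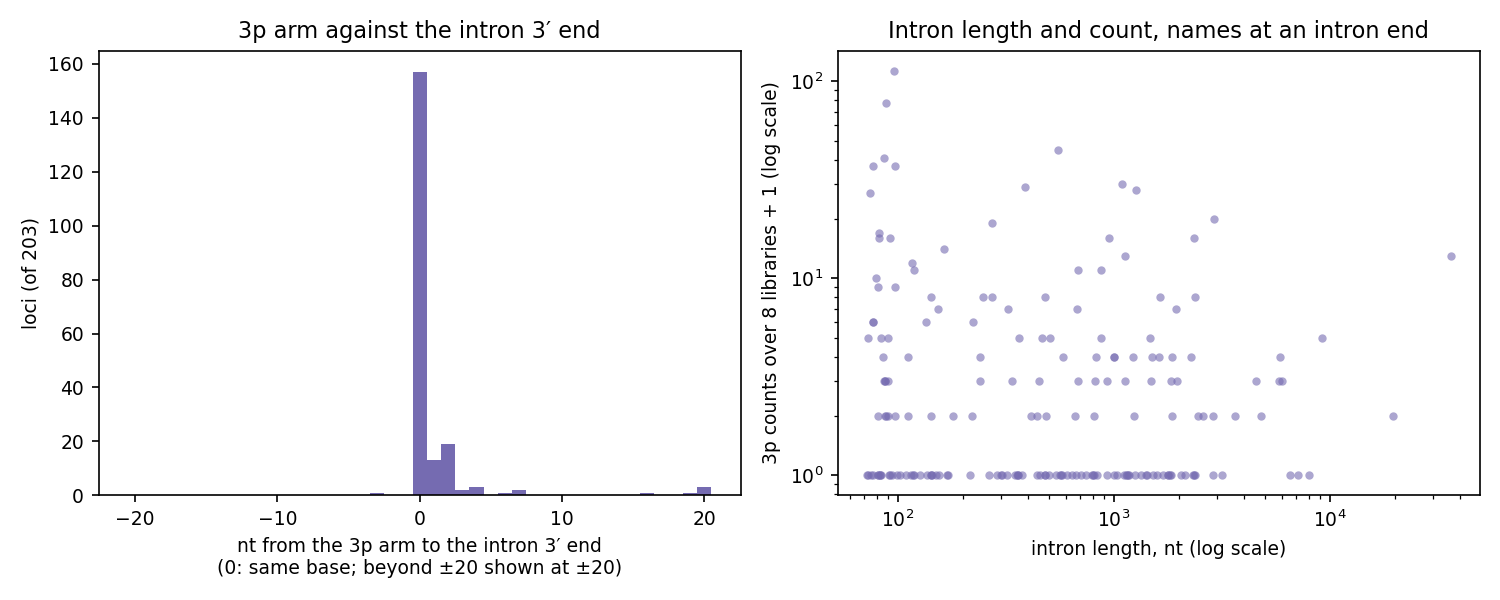
Left, the distance in nt between the last base of each of the 203 member loci and the 3′ end of the nearest annotated intron, with 157 loci at 0. Right, each point is a member name at an intron end, with intron length in nt on the x axis and its 3p counts over the 8 libraries plus 1 on the y axis (both log scales): the highest member lies in a short intron, but members with 20 or more counts lie in short and in long introns.

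The members were present at trace levels. Over the 8 libraries 108 of 201 names (53.7%) had at least 1 perfectly matching read, and all members together had 910 counts, or 47.0 per 1000000 miRNA counts. The other 93 names had 0 counts. RPM is the count per 1000000 perfectly mapped reads of a library. With 12898619 to 16228597 such reads per library, a name without a read in a given library could still be at 0.185 to 0.233 RPM there. This limit stands for 3 counts and covers counting error only. For the 93 names at 0 in all 8 libraries the limit over the pooled reads is lower. Of the detected members 24 had a single count, 60 had 2 to 9, 14 had 10 to 19, 4 had 20 to 29 and 6 had 30 or more. Among the 1563 names outside these hairpins 52.8% had at least 1 count, a similar share. The counts behind it were higher there: 32.7% of those names but 11.9% of the members had at least 10 counts, and 20.1% of those names but only 1 member had at least 100. No member reached a mean of 1 RPM over the libraries, and 19 reached 0.1 RPM. Only 5 members, miR-6944-3p, miR-6967-3p, miR-6911-3p, miR-7070-3p and miR-7079-3p, were counted in all 8 libraries, whereas 32 were counted in a single library.

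The 6 fibroblast markers were counted in all 8 libraries, at unequal levels. Together they (miR-21a-5p, miR-199a-3p, miR-214-3p, miR-143-3p, miR-145a-5p and miR-31-5p) summed to 34885 to 82613 RPM. Most of this was miR-21a-5p, at a mean of 48266 RPM, and miR-31-5p, at 8525 RPM. The means of miR-143-3p, miR-199a-3p, miR-214-3p and miR-145a-5p were 1489, 926, 138 and 48.4 RPM. Of the embryonic stem cell markers 5 of 6 were at 0 in every library, and the sixth, miR-295-3p, had 1 count. Of the markers of other cell types, miR-9-5p, known as a neuronal miRNA, stood out at 159 ± 46.5 RPM (SD, n = 8). This was above the means of miR-214-3p and miR-145a-5p, while miR-124-3p was at 0.528 ± 0.317 RPM. The miRNA share of the perfectly mapped reads was 10.9 to 16.5% in the CAG-EGFP libraries and 18.7 to 22.1% in the U6 libraries, with no overlap. The part of these differences in the member levels below was not tested.

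Counts were concentrated on few members. The 10 highest had 455 of the 910 counts (50.0%) and miR-6944-3p alone had 12.3%. miR-6944-3p lies at chr13:55477681-55477703 on the minus strand, as the last 23 nt of a 96-nt intron of Dbn1, which encodes the actin-binding protein drebrin, and its 5p arm starts at the first base of that intron. It had 12 and 7 counts with CAG-EGFP-MosIR, 16 and 12 with CAG-EGFP-Lin28IR, 16 and 11 with U6-MosIR and 18 and 20 with U6-Lin28aIR. The U6-Lin28aIR libraries were the highest and a CAG-EGFP-MosIR library the lowest, and the CAG-EGFP and U6 ranges overlapped. Its level was 0.962 ± 0.311 RPM (SD, n = 8).

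miR-6967-3p was second with 77 counts. It lies at the end of an 88-nt intron in each of a pair of related kinesin genes, at chr17:26921000-26921019 on the plus strand (Kifc5b) and at chr17:33886676-33886695 on the minus strand (Kifc1). Both loci hold the same sequence and were listed with the same counts, which were used once, so that the reads of the 2 genes cannot be told apart. The counts were 11 and 9 with CAG-EGFP-MosIR, 4 and 3 with CAG-EGFP-Lin28IR, 8 and 15 with U6-MosIR and 19 and 8 with U6-Lin28aIR. Both CAG-EGFP-Lin28IR libraries were the lowest, and the 2 U6-Lin28aIR libraries lay far apart. The mean level was 0.677 ± 0.422 RPM (SD, n = 8).

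miR-6911-3p, with 44 counts, comes from a longer intron (550 nt) of Dazap1, which encodes an RNA-binding protein, at chr10:80278212-80278232 on the plus strand. It had 5 and 3 counts with CAG-EGFP-MosIR, 10 and 7 with CAG-EGFP-Lin28IR, 3 and 6 with U6-MosIR and 6 and 4 with U6-Lin28aIR, so that the promoter groups overlapped. miR-7070-3p, with 40 counts, is the end of an 86-nt intron of the F-box gene Fbxw9 at chr8:85062152-85062171 on the plus strand, and its 5p arm starts at the first base of the intron. Its counts were 7 and 5, 7 and 2, 3 and 4, and 1 and 11 in the same order of plasmids. The highest and the lowest value of miR-7070-3p were thus the 2 U6-Lin28aIR libraries.

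Both members with 36 counts had libraries at 0. miR-6989-3p lies at chr19:6346523-6346544 on the plus strand at the end of a 77-nt intron of Map4k2, a kinase gene. It had 0 and 13 counts with CAG-EGFP-MosIR, 0 and 2 with CAG-EGFP-Lin28IR, 3 and 6 with U6-MosIR and 6 in each U6-Lin28aIR library. The 13 counts of CAG-EGFP-MosIR replicate 2 lay above every other library, while the other 3 CAG-EGFP libraries lay below every U6 library. miR-7075-3p, at chr8:107096025-107096045 on the minus strand in a 97-nt intron of Terf2, a telomere-binding protein gene, had 6 and 5, 0 and 6, 5 and 3, and 5 and 6 counts. Apart from the library at 0, CAG-EGFP-Lin28IR replicate 1, its counts stayed between 3 and 6.

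The remaining 4 of the 10 highest had 26 to 29 counts each. miR-7079-3p (chr8:123105023-123105043 on the plus strand), in an intron of 1089 nt of the ribosomal protein gene Rpl13, had 8 and 3 counts with CAG-EGFP-MosIR, 5 and 1 with CAG-EGFP-Lin28IR, 3 and 2 with U6-MosIR and 2 and 5 with U6-Lin28aIR. This stretch also lies within an annotated Rpl13 exon. miR-7093-3p (chrX:134757711-134757731 on the plus strand), in an intron of 389 nt of Armcx3, which encodes a mitochondrial protein, had 1 and 2, 9 and 0, 5 and 5, and 3 and 3 counts. The highest and lowest of these were the CAG-EGFP-Lin28IR libraries. miR-6904-3p (chr1:180587243-180587260 on the plus strand), in an intron of 1270 nt of Parp1, the gene of a DNA damage-responsive poly(ADP-ribose) polymerase, had 3 and 4, 1 and 2, 5 and 6, and 0 and 6 counts. miR-7068-3p (chr8:72470016-72470036 on the minus strand), the end of a 74-nt intron of Cherp whose 5p arm starts at the first base of that intron, had 3 and 0, 1 and 3, 12 and 2, and 3 and 2 counts. With 12 of its 26 counts in U6-MosIR replicate 1, it rested on a single library more than miR-6904-3p did, and it too lies within an annotated exon, of Cherp.

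**Figure D2:**
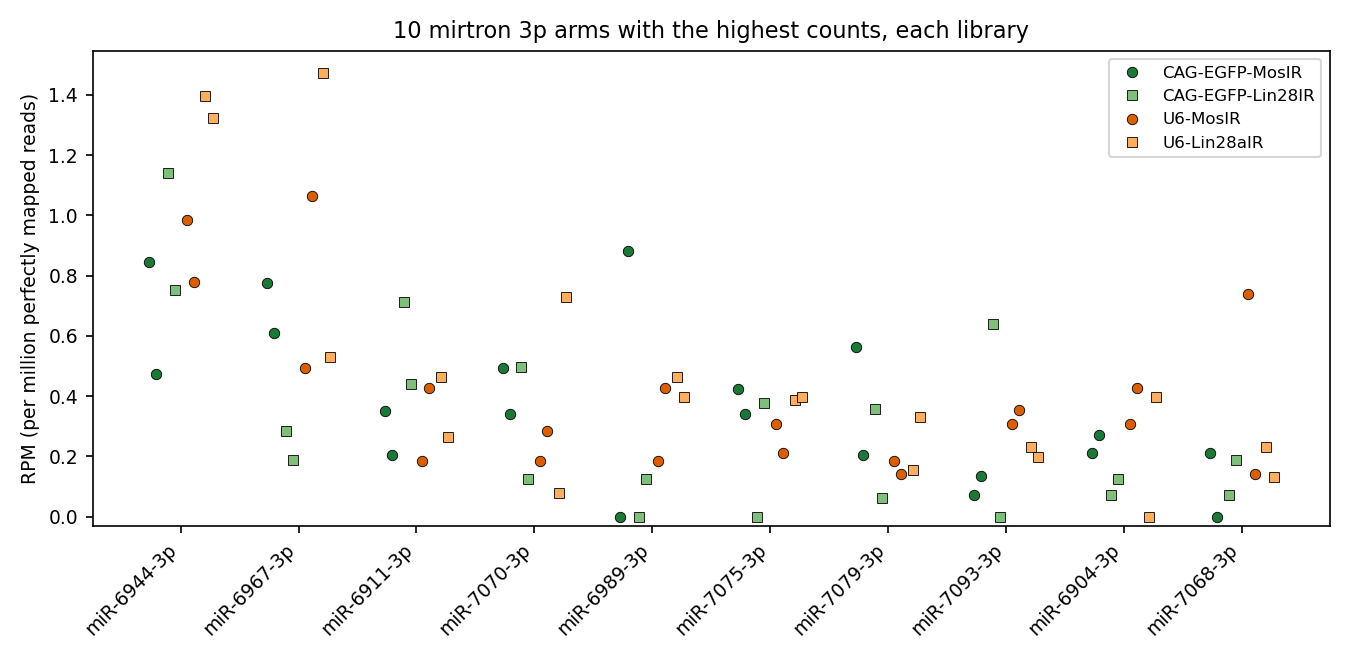
RPM of the 10 members with the highest counts in each of the 8 libraries, on a linear axis. Colour and shape give the plasmid and each point is a library: CAG-EGFP (green) and U6 (orange) libraries overlap for every member.

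The spread over libraries was near the average level of counting error for some members and above that level for others. An index of spread was computed for each of the 24 members with at least 10 counts. The squared deviation of each library from the count expected from its mapped reads was divided by that expected count. These values were summed over the 8 libraries and divided by 7 degrees of freedom, so that counting error alone gives about 1 on average. At such low counts a single index can lie well away from 1 by counting error alone, and no index was tested. The median index was 1.47 and the range 0.391 to 4.47. miR-7075-3p (0.902), miR-6911-3p (1.15) and miR-6944-3p (1.45) lay near 1, and 8 members lay above 2, among them miR-6989-3p (4.16), miR-6967-3p (3.76) and miR-7068-3p (3.62). The highest index, 4.47, belonged to miR-6954-3p, named here after its value was seen, which had 10 counts in all and 7 of them in a single library. The sum of all members had an index of 4.56. As the 8 libraries join 4 plasmids and differ in their miRNA share of mapped reads, the index includes such differences besides those between wells.

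Members in short introns with both arms at splice sites had more counts per name. The 13 members whose both arms lie at the intron ends had 197 counts, and 8 of them were detected, among them miR-6944-3p, miR-7070-3p and miR-7068-3p. The 51 names with only the 3p arm at the end of an intron under 200 nt had 297 counts, with 29 detected. The 123 names at the end of an intron of 200 nt or more had 394 counts, with 65 detected. These classes had 3, 9 and 12 members with at least 10 counts. The 14 names away from an annotated intron end had 22 counts, 6 detected and none with at least 10. The median count was 2 in the first class and 1 in each of the next 2. As 178 of the 197 counts in the first class came from 3 names, the classes are described and were not tested.

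The 3p arms had more reads than the 5p arms of the same hairpins. Over all libraries the 3p arms had 910 counts and the 202 5p names had 500, with 86 detected (42.6%), so that 64.5% of the reads were 3p. Both arms were counted for 64 members, the 3p arm alone for 44, the 5p arm alone for 22 and neither for 71. The 5p arms are shown for the 3 highest members with both arms at the intron ends and for miR-6904, whose arms were close to equal in summed counts.
miR-6944-5p: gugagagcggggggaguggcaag
miR-7070-5p: gugaggggagcugaggcagga
miR-7068-5p: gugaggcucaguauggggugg
miR-6904-5p: uccugggguuagaguugagugg
The first 3 begin with gugag, a common start of an intron, and that of miR-6904, which lies inside a longer intron, does not. The counts of the 2 arms differed widely between hairpins. miR-6944 had 112 counts on the 3p arm and 2 on the 5p arm, miR-7070 had 40 and 18, miR-7068 had 26 and 2, and miR-6904 had 27 and 26. Within libraries the arms of miR-6904 differed: the U6-Lin28aIR libraries had 0 and 6 counts on the 3p arm and 6 and 1 on the 5p arm. For miR-6911 and miR-7075, with 44 and 36 counts on the 3p arm, the 5p arm was at 0 in every library.

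Some hairpins were read from the 5p arm instead. Among 38 members with at least 10 counts on both arms together, the 3p arm was higher in 26, the 5p arm in 11 and the arms were equal in 1. The 3p arm had at least 4 times the 5p count in 16 and the 5p arm at least 4 times the 3p count in 9. miR-6960 had 2 counts on the 3p arm and 42 on the 5p arm, miR-7033 had 0 and 39, and miR-6951 had 3 and 29. These hairpins were named after their values were seen.

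**Figure D3:**
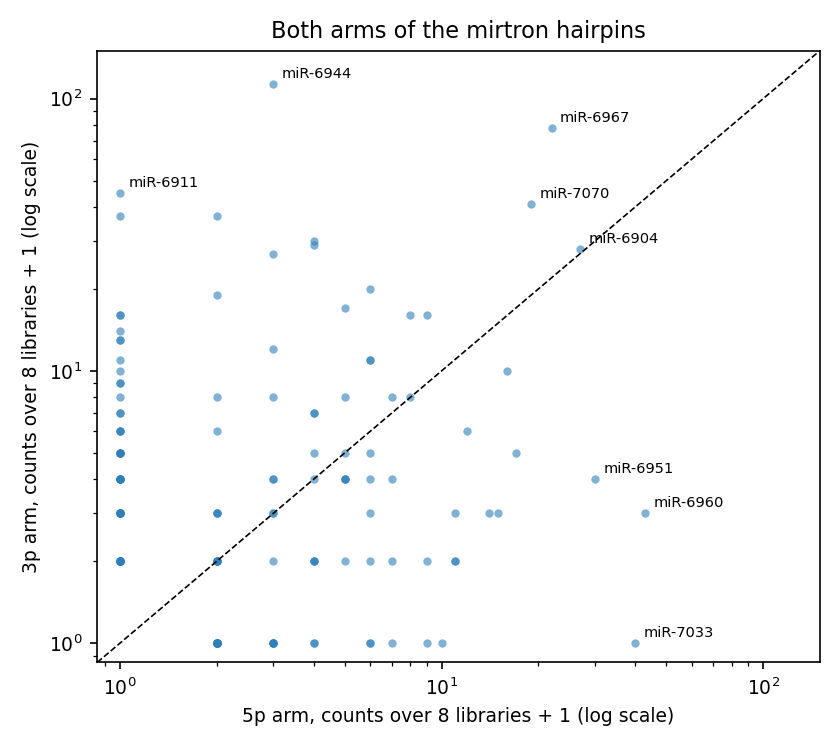
Each point is a member hairpin with at least 1 count, with the counts of its 5p arm on the x axis and of its 3p arm on the y axis, summed over the 8 libraries plus 1 (log scales). The dashed line marks equal counts: miR-6944, miR-6967 and miR-6911 lie above it, miR-6904 close to it, and miR-6960, miR-7033 and miR-6951 below it.

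The 3p share moved little between plasmids. It was 70.1 and 58.7% with CAG-EGFP-MosIR, 57.2 and 65.4% with CAG-EGFP-Lin28IR, 63.3 and 72.5% with U6-MosIR and 57.9 and 70.1% with U6-Lin28aIR. Libraries of the same plasmid differed by more than the promoter groups did, whose means were 62.9 ± 5.99% (SD, n = 4) for CAG-EGFP and 65.9 ± 6.63% (SD, n = 4) for U6. The widest gap between libraries, 57.2% (Wilson 95% interval 48.9 to 65.2%) against 72.5% (65.7 to 78.4%), left these intervals, which cover counting error only, apart. These libraries were picked as the lowest and the highest, and the intervals are not adjusted for that choice.

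The summed level of the members differed between the kinds of plasmid on one scale and not on others. CAG-EGFP-MosIR gave 8.24 and 7.13 RPM, CAG-EGFP-Lin28IR 5.63 and 5.59 RPM, U6-MosIR 8.07 and 9.72 RPM, and U6-Lin28aIR 8.84 and 9.14 RPM. The CAG-EGFP-Lin28IR libraries were the lowest, and the groups overlapped in that CAG-EGFP-MosIR replicate 1 lay above U6-MosIR replicate 1. The means were 6.65 ± 1.28 RPM for CAG-EGFP and 8.94 ± 0.687 RPM for U6 (SD, n = 4 each, joining 2 plasmids), a ratio of 1.35, which was 1.16 for Mos and 1.60 for Lin28 hairpins. In the same libraries the miRNA share of mapped reads was 1.45 times as high with U6. Per 1000000 miRNA counts, the members were at 49.6 ± 9.58 with CAG-EGFP and 45.9 ± 4.70 with U6, a ratio of 0.925, and per 1000000 mapped reads of 21–23 nt the ratio was 1.00. In such bulk libraries, fewer cells that make a small RNA and less of it per cell cannot be told apart. As a sum over chosen members it was given no test.

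**Figure D4:**
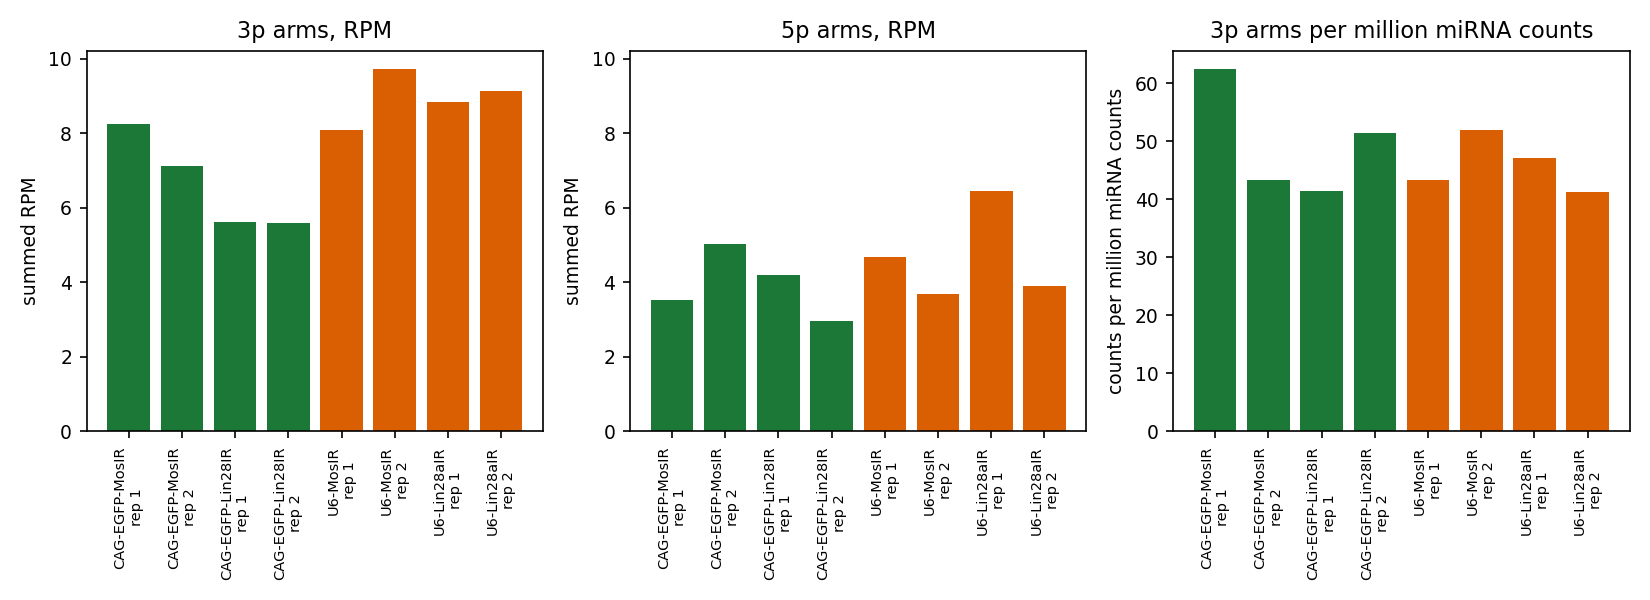
Summed level of the 3p arms (left) and of the 5p arms (middle) in RPM, and of the 3p arms per 1000000 miRNA counts (right), in each of the 8 libraries, with CAG-EGFP in green and U6 in orange. The U6 libraries are mostly higher on the left and not on the right.

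The number of members detected also varied between plasmids. There were 42 and 45 members with CAG-EGFP-MosIR, 26 and 37 with CAG-EGFP-Lin28IR, 52 and 62 with U6-MosIR and 38 and 47 with U6-Lin28aIR. The U6-MosIR libraries were the highest, and the promoter groups overlapped. Of the 108 detected members, 60 were counted with both kinds of plasmid, 19 with CAG-EGFP only (17.6%) and 29 with U6 only (26.9%). Over all 1019 detected names these shares were 9.52% and 15.0%. Among names with 1 to 9 counts they were 20.6% and 32.6% of all 470 and 22.6% and 34.5% of the 84 members, so that rare members were close to other rare names. Those seen with a single kind were rare: the highest had 3 counts (miR-6990-3p, CAG-EGFP) and 6 counts (miR-6914-3p, U6), both named after their values were seen. Between hairpin sequences, 64 were counted with both, 30 with Mos plasmids only and 14 with Lin28 plasmids only, with at most 4 counts on any of the latter 44. Among names with 1 to 9 counts the Mos only and Lin28 only shares were 35.7% and 16.7% of the members and 29.8% and 21.5% of all names. The differences between these shares were not tested.

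Only the 2 highest members had enough reads to be tested for a difference between plasmids. The counts of all miRNAs were fitted together with edgeR (quasi-likelihood F test, TMM normalisation, Benjamini-Hochberg adjustment, threshold 0.05), and 360 names passed its filter on low counts, among them miR-6944-3p and miR-6967-3p. For U6 against CAG-EGFP 0 of the 2 members passed the threshold, beside 2 of all 360 names (0.556%). At an unadjusted p under 0.05 in edgeR there were 0 of the 2 members and 32 of the 360 names, and DESeq2 called 0 of the 2 and 3 of the 360. The log2 fold change of miR-6944-3p was -0.02 ± 0.37 (SE, edgeR adjusted p = 0.986) and that of miR-6967-3p was 0.59 ± 0.53 (SE, edgeR adjusted p = 0.800). With the deposited library sizes in place of TMM the median of all names shifted from 0.00 to 0.50. The values became 0.48 for miR-6944-3p and 1.08 for miR-6967-3p. Neither passed the threshold (edgeR adjusted p = 0.283 and 0.0817), beside 184 of the 360 names that did. In that edgeR fit 1 of the 2 members, and at least these 184 names, had an unadjusted p under 0.05. Relative to the median of all names miR-6944-3p thus stayed near 0 on both scales. Without U6-Lin28aIR replicate 1, where miR-6967-3p had its highest count, its log2 fold change was 0.10, and over all fits without a library it ranged up to 0.90.

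Between the hairpin sequences, 0 of the 2 members and 0 of the 360 names (0%) passed the threshold, with 0 and 10 at an unadjusted p under 0.05 in edgeR and 0 past the threshold in DESeq2. The log2 fold change of Lin28 against Mos plasmids was 0.68 ± 0.36 for miR-6944-3p and -0.46 ± 0.53 for miR-6967-3p (SE, edgeR adjusted p = 0.970 for both). Without a library the latter ranged from -0.97 to -0.15. miR-6944-3p had 7 to 16 counts in the Mos libraries and 12 to 20 in the Lin28 libraries. The difference of the promoter effect between the hairpins was 1.42 ± 1.05 on the log2 scale for miR-6967-3p and -0.39 ± 0.73 for miR-6944-3p (SE, edgeR adjusted p = 0.994 for both), and that of miR-6967-3p ranged from 0.42 to 2.08 without a library. For it 0 of the 2 members and 0 of 360 names (0%) passed the threshold, with 0 and 13 at an unadjusted p under 0.05 in edgeR and 0 past the threshold in DESeq2. The other 106 detected members were too rare for this filter. Fitted without it, 0 of 108 members passed the threshold in any of these comparisons in edgeR, beside 4 of 1019 names (0.393%) for U6 against CAG-EGFP and 0 (0%) for each of the others. At an unadjusted p under 0.05 there were 0, 0 and 1 of the members and 49, 17 and 27 of the names for promoter, hairpin and their interaction. The median log2 fold change of these 108, which the fit's prior count affects in so rare miRNAs, was 0.27 for U6 against CAG-EGFP, with 58 above 0, beside 0.07 for all 1019 names. For Lin28 against Mos it was -0.55, with 67 below 0, beside -0.05. As 84 of the 108 members but 470 of the 1019 names had 1 to 9 counts, the comparison is not matched for rarity. These differences were not tested.

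Allowing mismatches added little. The members had 910 counts without mismatches, 926 with up to 1 and 926 with up to 2. Of the 16 counts gained, 9 were on 3 names that had none before, and 9 members gained in all, with no member losing any. Of the members with at least 10 counts when 2 mismatches were allowed, miR-6911-3p went from 44 to 45 and miR-7091-3p, the end of a 79-nt intron of Dnase1l1 at chrX:74274027-74274047 on the minus strand with both arms at the intron ends, from 9 to 10. No other member with at least 10 counts gained any. The largest gain of any member, from 0 to 5, was that of miR-7036b-3p, with 1 count in each of 5 libraries, named after its value was seen. It lies inside an annotated exon of Add1, away from any intron end. The ratio of counts with up to 2 mismatches to those without was 1.02 ± 0.0169 for the members and 1.01 ± 0.000420 for the names outside these hairpins (SD, n = 8).

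Known mirtrons outside the number range were set beside the members, whose own processing was not tested here. miR-877, of which both arms were counted in every library, had 244 counts on the 5p arm and 324 on the 3p arm, at 2.09 ± 0.869 and 2.79 ± 0.678 RPM (SD, n = 8), above the level of every member. miR-702-3p, with 62 counts, was at 0.522 ± 0.386 RPM and miR-702-5p had 6 counts. Both arms of miR-1224, known from brain, were at 0 in all libraries.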

How the data were processed

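Small RNA libraries of 3T3 cells were prepared from total RNA with the NEXTflex kit. After adapter trimming, the authors used STAR 2.5.3a for mapping to mm10 and the plasmids, allowing up to 2 mismatches and keeping multimapping reads. They deposited raw read counts for every mature miRNA locus at 0, 1 and 2 mismatches, together with mapped reads per library. The assignment of reads to loci and the use of strand are not given in the sources used here, and the counts hold no read ends or lengths. Where a name has several loci, the locus with the highest total stood for it. Tests used edgeR 4.0.16 (robust quasi-likelihood, filterByExpr) in R 4.3.3, in a single fit of the 4 plasmids, with DESeq2 1.42.0 as an alternative, after a check on simulated data. Wells are the replicates, 2 per plasmid. The members and lists were chosen with earlier results of these data known. The members named are the 10 with the highest counts, those tested, and those with the largest gains with mismatches among members that then had at least 10 counts. All other members named were picked with their values known. Small RNAs of the plasmid hairpins were not analysed here.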

Additional observations from a re-analysis of the deposited data

Results flagged for a closer look

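Among the 4 libraries of each promoter, 30 groups of values (5 summary measures and the 10 highest members) were examined for a library far from the other 3 by Dixon's criterion. In normally distributed replicates chance alone meets it in about 1 in 20 groups, or 1.5 of 30, and 3 met it here. Each group joined 2 plasmids and many values were small counts, so that the 1.5 is only a rough guide. For miR-6989-3p, CAG-EGFP-MosIR replicate 2 was at 0.883 RPM while the other CAG-EGFP libraries were at 0 to 0.126 RPM. For miR-7068-3p, U6-MosIR replicate 1 was at 0.739 RPM while the other U6 libraries were at 0.132 to 0.233 RPM. The ratio of member counts with up to 2 mismatches to those without was 1.03 in U6-Lin28aIR replicate 1 and 1.01 in each of the other U6 libraries, a difference of few reads, with 117 counts in place of 114.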

How the results depend on the processing

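The number of members past the threshold stayed at 0 in all 3 comparisons under each alternative run, in which 2 to 108 members were tested. For all names, U6 against CAG-EGFP gave 2 calls, 184 with the deposited library sizes, 4 without the filter and 2 to 11 without a library (11 without CAG-EGFP-MosIR replicate 1, 10 without CAG-EGFP-MosIR replicate 2 and 5 without U6-Lin28aIR replicate 1). Lin28 against Mos gave 0 calls and 0 to 3 without a library, with 3 without CAG-EGFP-MosIR replicate 1. For U6 against CAG-EGFP the log2 fold change of miR-6944-3p turned from -0.02 to 0.48 with the deposited library sizes and 0.014 without the filter, with -0.22 to 0.21 over the fits without a library (edgeR adjusted p between 0.283 and 1.00 over its alternatives). Its interaction turned from -0.39 to 0.10 with the deposited sizes and ranged from -0.94 to 0.0096 without a library. That of miR-6967-3p kept its sign in every fit, with 0.10 to 0.90 for U6 against CAG-EGFP without a library (0.10 without U6-Lin28aIR replicate 1 and 0.90 without U6-Lin28aIR replicate 2), -0.97 to -0.15 for Lin28 against Mos (the same 2 libraries) and 0.42 to 2.08 for the interaction (again the same 2). The causes were not tested. Replicate numbers did not pair the libraries (correlations of same-numbered deviations from -0.165 to 0.160), and with the replicate block U6 against CAG-EGFP gave 2 calls. Detection fell from 108 to 67 members when at least 3 counts were asked for, and was 100 to 107 without a library. The summed level of 7.79 RPM became 31.0 per 1000000 reads of 18–30 nt, 55.6 per 1000000 reads of 21–23 nt and 47.8 per 1000000 miRNA counts, by the change of denominator. Without a library the summed level was 7.52 to 8.11 RPM, the 3p share 63.2 to 65.4% and the mismatch ratio 1.02. The filter on low counts left 106 of the 108 detected members out of the main test.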
